A study of Mus musculus with 12 samples.

Results

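Expression of 10 genes that carry NF-kB signalling downstream of the receptor Fn14 was examined in the hippocampus of 12 adult female mice of 3 strains, 4 mice each. The genes were chosen by name (Traf1, Traf2, Traf3, Birc2, Birc3, Map3k14, Nfkb1, Nfkb2, Rela and Relb), and every array feature other than a control that carried one of these names was taken. This gave 17 probes for 10 genes, of 43020 spots, 39429 probes and 29608 genes measured. MRL/lpr mice lack functional Fas through the lpr mutation and develop spontaneous lupus-like disease. Fn14ko mice are MRL/lpr mice in which Tnfrsf12a, the gene for Fn14, was knocked out, so they carry the lpr mutation as well. They were littermates bred in one colony after backcrossing to MRL/lpr. MRL/+ mice (MRL/MpJ) share the MRL background, have intact Fas and Tnfrsf12a, and were purchased. The knockout was constitutive, so it was not limited to neurons, glia or blood-borne cells, and whole hippocampus was taken. The labels name hippocampus as the tissue, although their free text also mentions cortex, and the 7 hippocampal and 8 neuronal marker genes of the lists used, each well above background in at least 1 mouse, include genes also expressed in cortex and do not tell these regions apart.

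Fn14 is a small receptor of the TNF receptor superfamily that has no enzymatic activity of its own. When its ligand TWEAK (gene Tnfsf12) binds, the cytoplasmic tail recruits the adaptor TRAF2 together with the ubiquitin ligases cIAP1 and cIAP2 (genes Birc2 and Birc3), which pulls them away from TRAF3. TRAF3 and the cIAPs otherwise keep the kinase NIK (gene Map3k14) degraded. Stabilised NIK drives processing of the p100 precursor made by Nfkb2, which frees RelB dimers (the noncanonical arm), whereas the IKK complex frees dimers of RelA and the p50 product of Nfkb1 from IkB inhibitors (the canonical arm). Traf1, Birc3, Nfkb1, Nfkb2 and Relb are themselves known target genes of NF-kB. These steps are mostly changes of protein stability and location, which an array of mRNA does not measure.

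The probes are 60-base oligonucleotides, and 4 that match transcript sequence of the precursors, the ligase and the kinase are shown because the weak channels described below stood high for these genes, and because Nfkb2 was the one member that separated Fn14ko from MRL/+. Each contains at least 1 reading frame without a stop codon. Positions are in mm9, as deposited, and all letters are in lower case because the whole oligonucleotide is the measured site.
Nfkb1 probe A_55_P1968743, chr3:135254550-135254609, minus strand: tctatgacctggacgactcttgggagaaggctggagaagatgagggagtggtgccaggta
Nfkb2 probe A_51_P454217, chr19:46386146-46386285, plus strand: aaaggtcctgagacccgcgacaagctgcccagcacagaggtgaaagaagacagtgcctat
Birc3 probe A_55_P1980287, chr9:7854409-7854468, minus strand: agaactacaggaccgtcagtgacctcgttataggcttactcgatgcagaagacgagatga
Map3k14 probe A_55_P1988664, chr11:103101069-103101128, minus strand: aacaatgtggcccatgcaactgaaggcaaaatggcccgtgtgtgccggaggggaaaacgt
The Nfkb2 oligonucleotide covers 140 bases of genome with its 60 bases and so crosses an exon junction, whereas the other 3 each match one unbroken stretch of the genome.

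Because several members are NF-kB targets, the 250 bases before each start site in the RefSeq promoter table (GRCm38.p6) were searched on both strands for the 10-base kB consensus site. Of 32851 start sites, 3.9% held a match, and of 27025 genes 4.46% held a match at any start site. The table listed 8 of the 10 members with 11 start sites. Of these start sites 4, belonging to 2 members, held a match, among them every start site listed for Nfkb2. Of the members named above as NF-kB targets, Nfkb2 held matches, Traf1 and Birc3 held 0, and Nfkb1 and Relb were not listed. A match describes letters in a window and was not tested for binding. The windows at the first listed start site of each gene are shown with the matched bases in capitals.
Traf3, chr12:111166340-111166369, plus strand, match beginning 10 bases before the start: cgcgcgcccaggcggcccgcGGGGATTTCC
Nfkb2, chr19:46304689-46304718, plus strand, overlapping matches beginning 39 and 38 bases before the start: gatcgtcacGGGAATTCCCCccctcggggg
Nfkb2, chr19:46304707-46304736, plus strand, match beginning 11 bases before the start, with the last bases of the matches above at its left end: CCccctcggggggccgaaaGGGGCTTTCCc
Nfkbia, chr12:55492657-55492686, minus strand, match beginning 29 bases before the start: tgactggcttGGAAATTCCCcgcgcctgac
Nfkbia, which encodes the inhibitor IkB alpha and is a well known NF-kB target, is shown for comparison and is not one of the 10 genes.

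Each array held 2 mice of the same strain, 1 labelled with Cy3 (replicates 1 and 3) and 1 with Cy5 (replicates 2 and 4). Both arrays of a strain shared a slide, and each slide was scanned on its own, so slide, scan and strain cannot be told apart, nor, for the purchased MRL/+ mice, source and strain. A level is the background-subtracted intensity as a share of the median of its channel over 10877 spots that were at least 2-fold above background in all 12 channels. It has no unit and is compared between mice for the same gene, not between genes. Signal was uneven. In the array of MRL/lpr replicates 3 and 4 the median foreground was 1.93 and 1.73 times background, against 4.42 to 12.6 in the other 10 channels, and 25.2% and 19.6% of spots were well above background. In MRL/+ replicates 2 and 4 these shares were 29.6% and 31.8%, against 51.5% to 68.1% in the remaining 8 channels. The median intensity of negative controls was 208 and 211 in those MRL/+ channels and 33.2 to 90.6 elsewhere. Results below are therefore given for all 12 mice and without these 4 channels, an alternative chosen after the data were seen. That leaves 2 MRL/lpr mice of 1 array, 4 Fn14ko mice and 2 MRL/+ mice, both labelled with Cy3. The dye term of that smaller fit is thus estimated from MRL/lpr and Fn14ko alone, and its differences from MRL/+ depend on it.

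**Figure D1:**
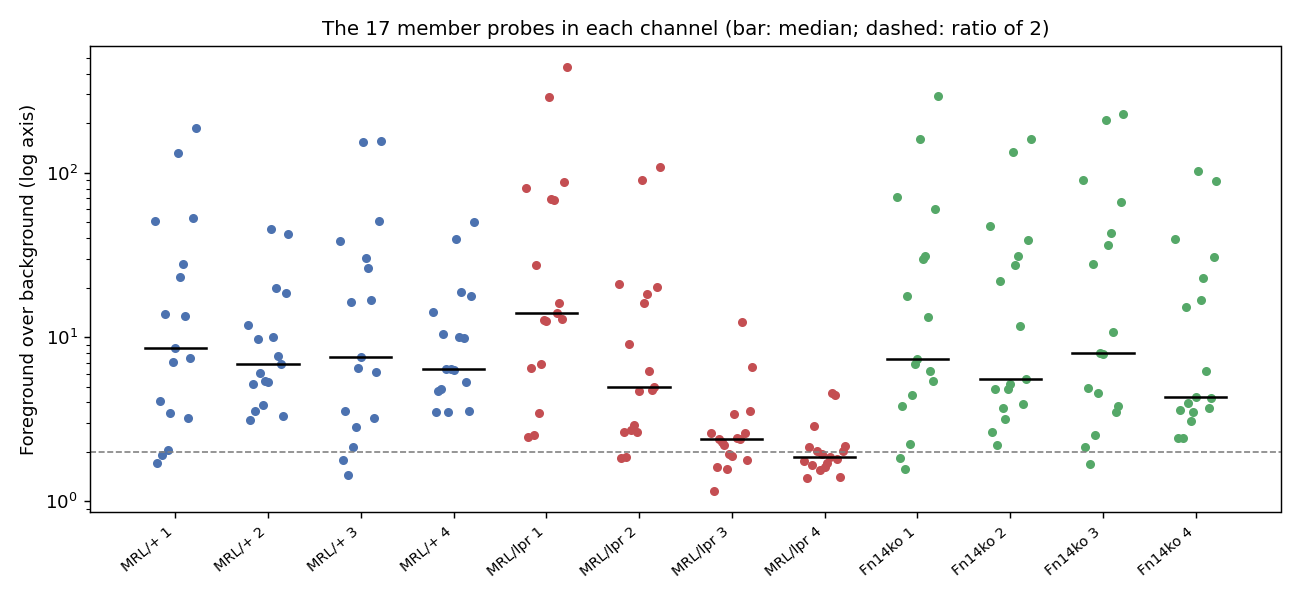
Foreground over background (log axis) of the 17 member probes in each of the 12 channels, one point per probe, with the median as a bar and a ratio of 2 dashed. The median was 2.38 and 1.86 in MRL/lpr replicates 3 and 4 and 4.3 to 14.1 in the other channels.

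The targeted gene was measured first. Tnfrsf12a had levels of 0.177, 0.16, 0.189 and 0.151 in the 4 Fn14ko mice, 0.439, 0.307, 0.241 and 0.247 in MRL/lpr, and 0.283, 0.629, 0.503 and 0.502 in MRL/+. At the scaling used here all 4 Fn14ko mice lay below the other 8, yet the probe was well above background in each Fn14ko mouse. Its place relative to the deleted part of the gene is not given in the sources used. Of all genes 8.28% were lower in Fn14ko than in MRL/+ without overlap, and 12.9% were higher in MRL/lpr than in Fn14ko without overlap. The log2 difference of Fn14ko from MRL/+ was -1.45 ± 0.32 (SE, n = 4 and 4), with a limma adjusted p of 0.111. MRL/lpr exceeded Fn14ko by 0.83 ± 0.32, with a limma adjusted p of 0.132, and exact two-sided permutation tests of both differences gave p = 0.0286, the smallest that 4 against 4 mice allow. Without the 4 weak channels the difference from MRL/lpr passed (1.13 ± 0.24, limma adjusted p = 0.0458) and that from MRL/+ did not (-1 ± 0.27, adjusted p = 0.183). With only the weak array left out both passed. MRL/lpr against Fn14ko turned sign with channel medians over all spots (-0.63) and with quantile normalization (-0.1). Tnfsf12, the ligand, was 0.214, 0.222, 1.72 and 1.45 in MRL/lpr, 0.186, 0.179, 0.206 and 0.201 in Fn14ko, and 0.26, 0.192, 0.288 and 0.178 in MRL/+. Only the weak array stood high for the ligand, and without the 4 weak channels MRL/lpr and Fn14ko differed by 0.18 ± 0.09 (limma adjusted p = 0.314).

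Across the 10 members no difference between strains passed the test with all 12 mice. Of all genes, 2.3% (680 of 29608) passed at a limma adjusted p under 0.05 for MRL/lpr against MRL/+, 6.39% (1892) for MRL/lpr against Fn14ko and 0.125% (37) for Fn14ko against MRL/+, where 21 genes passed with the replicate number as a block. In the first comparison 0.77% were higher and 1.53% lower, in the second 5.06% and 1.33%, and in the third 0.0135% and 0.111%. At an unadjusted p under 0.05 the members numbered 1, 3 and 0 in these comparisons, beside 19.2%, 27.8% and 8.74% of all genes. The smallest adjusted p of a member was 0.221, 0.127 and 0.422. The criterion of the study's methods, which combines a per-gene cut on the ratio with the methods' t-test, was also met by 0 members in each comparison, beside 2.34%, 3.1% and 2.86% of all genes. In the methods' t-test alone, without adjustment, only Birc2 passed, in MRL/lpr against Fn14ko, beside 7.7%, 7.41% and 7.86% of all genes in the 3 comparisons.

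The members' differences were set beside those of other genes measured in the same way. The median log2 difference of all genes was 0.21 for MRL/lpr against MRL/+, 1.35 for MRL/lpr against Fn14ko and -0.98 for Fn14ko against MRL/+, and that of the 10 members was 0.06, 0.65 and -0.47. Among the 8864 genes with a spot valid in all 12 channels, which include Traf2, Traf3, Map3k14 and Relb, the medians were -0.01, 0.03 and -0.16. Among the other 20744 genes, which include the remaining 6 members, they were 0.25, 1.61 and -1.37. That second class holds dim genes but also Rela and Birc2, which were well above background in 10 of 12 channels, so its median is no measure for either. Relative to it, Traf1 stood 0.93 above, 0.44 above and 0.50 above in the 3 comparisons. For the other 7 members the difference from the median of their class ranged from -0.60 to 0.42, from -0.59 to 0.63 and from -0.45 to 0.44.

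**Figure D2:**
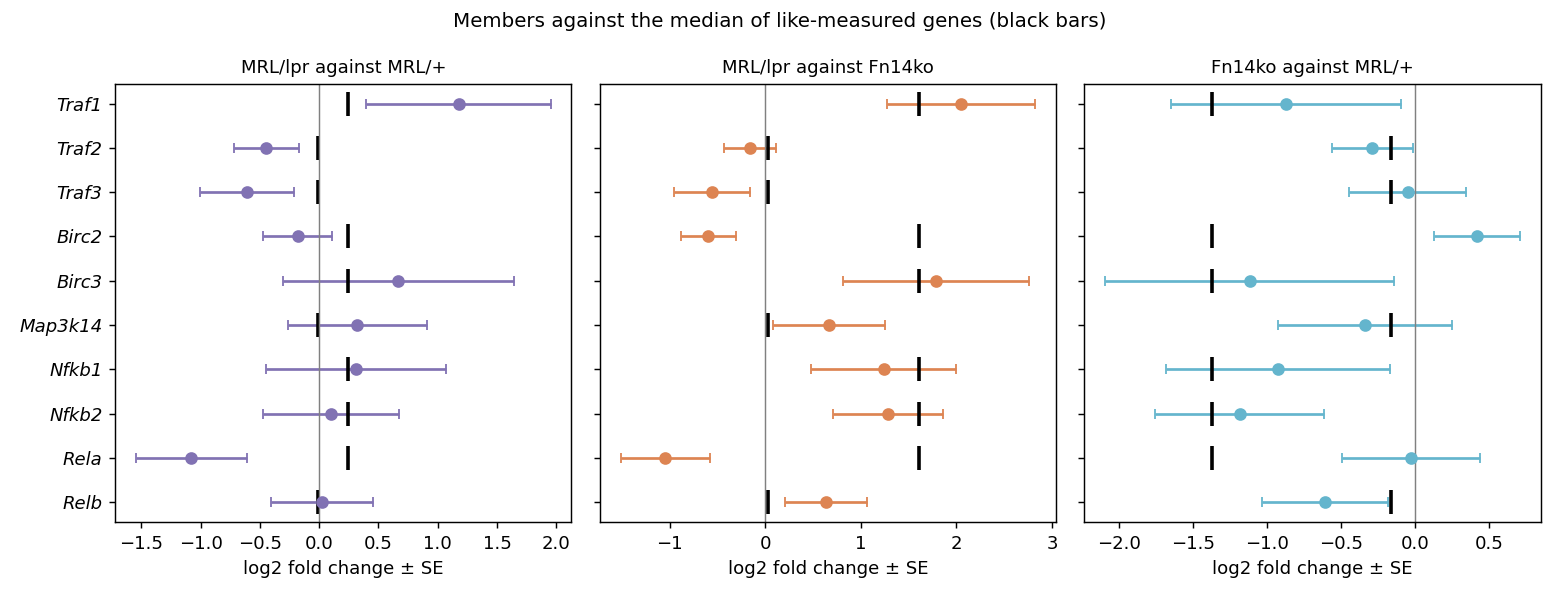
Log2 difference ± SE (limma, 4 mice a group) of each member in the 3 comparisons, with a black bar at the median of genes of the same class (with or without a spot valid in all 12 channels). For MRL/lpr against Fn14ko the bar of the genes without such a spot lies at 1.61, with Traf1, Birc3, Nfkb1 and Nfkb2 within 1 SE of it.

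Traf1 encodes an adaptor of the TRAF family that lacks the ubiquitin ligase domain of its relatives and binds TRAF2. It was read by a single probe at chr2:34798882-34798941, well above background in 7 of 12 channels (2 of MRL/lpr, 3 of Fn14ko and 2 of MRL/+). Its level was 0.0686, 0.0701, 0.227 and 0.359 in MRL/lpr, 0.042, 0.0302, 0.0245 and 0.0433 in Fn14ko, and 0.0194, 0.234, 0.0207 and 0.16 in MRL/+. Every MRL/lpr mouse exceeded every Fn14ko mouse, and MRL/+ split by dye, with its Cy5 mice above the first MRL/lpr array and its Cy3 mice lowest of all. MRL/lpr against Fn14ko gave 2.05 ± 0.78 (limma adjusted p = 0.127, exact permutation p = 0.0286). Groups that did not overlap were found for 17.7% of all genes in that comparison, 12.9% with MRL/lpr higher and 4.87% with MRL/lpr lower. Without the 4 weak channels Traf1 was 1.73 ± 0.34 higher in MRL/lpr than in MRL/+ (limma adjusted p = 0.0361). It was the only member past the test there, where 12.9% of all genes passed. The same fit gave 1.03 ± 0.27 against Fn14ko (adjusted p = 0.0797) and 0.70 ± 0.3 for Fn14ko against MRL/+ (adjusted p = 0.369), so the order was MRL/lpr, Fn14ko, MRL/+, with only its ends separated by the test and neither pair of neighbours. For Fn14ko against MRL/+ the sign with all 12 mice was the opposite, at -0.87.

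Traf2 encodes the adaptor that docks on the Fn14 tail. The probe used, at chr2:25374386-25374445, gave 0.458, 0.367, 0.345 and 0.477 in MRL/lpr, 0.461, 0.368, 0.562 and 0.446 in Fn14ko, and 0.395, 0.786, 0.491 and 0.624 in MRL/+. The 3 strains overlapped, and the weak array did not stand apart for this gene. Its coefficient of variation of 16% in MRL/lpr was the lowest of the members there. Differences ranged from -0.45 to -0.16 with adjusted p-values of 0.443 to 0.632. A second Traf2 probe at chr2:25373541-25373600 was left out because it was valid in 10 of 12 channels. It read 0.0589, 0.0657, 0.11 and 0.204 in MRL/lpr and 0.027 to 0.053 in Fn14ko, a separation that the probe used did not show.

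Traf3 encodes the adaptor that hands NIK to the cIAPs for degradation. Its probe at chr12:112505252-112505311 gave 1.93, 2.05, 0.847 and 0.527 in MRL/lpr, 2.06, 1.51, 1.84 and 1.45 in Fn14ko, and 1.57, 2.34, 1.38 and 1.89 in MRL/+. The first MRL/lpr array fell within the range of the other strains and the weak array fell below all 10 other mice. The difference of MRL/lpr from Fn14ko was -0.56 ± 0.39 with all mice (limma adjusted p = 0.251). It turned to 0.23 ± 0.13 without the 4 weak channels (adjusted p = 0.368). Against MRL/+ the same change of samples moved Traf3 from -0.61 to 0.55 (adjusted p = 0.107).

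Birc2 encodes cIAP1, the ligase that marks NIK for degradation. The mean of its 2 probes was 0.241, 0.223, 0.163 and 0.237 in MRL/lpr, 0.307, 0.291, 0.41 and 0.3 in Fn14ko, and 0.214, 0.318, 0.186 and 0.273 in MRL/+. All 4 Fn14ko mice exceeded all 4 MRL/lpr mice, whereas MRL/+ overlapped with both. Between MRL/lpr and Fn14ko groups did not overlap for 17.7% of all genes, 4.87% with MRL/lpr lower. MRL/lpr against Fn14ko was -0.60 ± 0.29 (limma adjusted p = 0.191, exact permutation p = 0.0286), and without the 4 weak channels -0.48 ± 0.14 (adjusted p = 0.104). In that second fit Fn14ko exceeded MRL/+ by 0.80 ± 0.16 (adjusted p = 0.109), the largest member difference between those strains. The brighter probe, at chr9:7818688-7818747, read 0.475, 0.431, 0.3 and 0.316 in MRL/lpr, 0.607, 0.567, 0.81 and 0.577 in Fn14ko, and 0.423, 0.543, 0.364 and 0.454 in MRL/+. The other probe was well above background in 1 of 12 channels and read 0.0926, 0.092 and 0.159 in MRL/+ replicates 2 and 4 and MRL/lpr replicate 4, against 0.01 to 0.0271 elsewhere. Averaging log2 levels of both probes, which gives the near-background probe the same weight, turned MRL/lpr against Fn14ko to 0.17.

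Birc3 encodes cIAP2, the second cIAP and itself an NF-kB target. Its level was 0.0212, 0.0234, 0.166 and 0.343 in MRL/lpr, 0.0138, 0.0241, 0.02 and 0.0301 in Fn14ko, and 0.0153, 0.164, 0.0129 and 0.136 in MRL/+. High values occurred in the 4 weak channels and nowhere else. The gene was well above background in 6 of 12 channels, all through the probe whose sequence is given above, and its other probe at chr9:7856162-7856221 in 0. Compared with Fn14ko, MRL/lpr differed by 1.79 ± 0.97 with all mice (limma adjusted p = 0.224) and 0.08 ± 0.23 without the weak channels (adjusted p = 0.88).

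Map3k14 encodes NIK, the kinase of the noncanonical arm. Its 2 probes averaged 0.0825, 0.0938, 0.203 and 0.59 in MRL/lpr, 0.0679, 0.119, 0.129 and 0.141 in Fn14ko, and 0.0583, 0.348, 0.072 and 0.261 in MRL/+. The first MRL/lpr array lay inside the Fn14ko range, and the weak channels again held the high values. The log2 difference between MRL/lpr and Fn14ko was 0.66 ± 0.59 (limma adjusted p = 0.344) and became -0.32 ± 0.29 without the weak channels (adjusted p = 0.591). The brighter probe, at chr11:103081249-103081308, was well above background in 10 channels and the one shown above in 3.

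Nfkb1 encodes p105, the precursor of p50. The mean of its 2 probes was 0.0438, 0.0348, 0.114 and 0.301 in MRL/lpr, 0.0317, 0.03, 0.0472 and 0.0378 in Fn14ko, and 0.0347, 0.181, 0.0283 and 0.124 in MRL/+. The 8 mice outside the weak channels spanned only 0.0283 to 0.0472. Compared with Fn14ko, MRL/lpr differed by 1.24 ± 0.76 with all mice (limma adjusted p = 0.227) and 0.11 ± 0.22 without the weak channels (adjusted p = 0.784).

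Nfkb2 encodes p100, the substrate that NIK sends for processing. Its probe read 0.0593, 0.0662, 0.124 and 0.25 in MRL/lpr, 0.0398, 0.0362, 0.0535 and 0.045 in Fn14ko, and 0.0559, 0.171, 0.0581 and 0.167 in MRL/+. At the scaling used here all 4 Fn14ko mice lay below all 8 others, in the better channels as in the weak ones. The gap was narrow (0.0535 in the highest Fn14ko mouse and 0.0559 in the lowest MRL/+ mouse). The probe was well above background in 7 of 12 channels, 2 of MRL/lpr, 3 of Fn14ko and 2 of MRL/+. Nfkb2 was the one member that separated Fn14ko from both other strains in this direction. Groups did not overlap for 10.7% of all genes in Fn14ko against MRL/+, 8.28% with Fn14ko lower and 2.43% with Fn14ko higher. MRL/lpr against Fn14ko was 1.28 ± 0.57 and Fn14ko against MRL/+ -1.19 ± 0.57 (limma adjusted p = 0.17 and 0.422, exact permutation p = 0.0286 for both). Without the weak channels these were 0.54 ± 0.19 and -0.36 ± 0.21 (adjusted p = 0.155 and 0.53). MRL/lpr against Fn14ko turned sign with channel medians over all spots (-0.17), quantile normalization (-0.28) and normexp, loess and Aquantile (-0.22). Tested with only the 8 mice of Fn14ko and MRL/+, Nfkb2 passed, with an adjusted p of 0.0381, in a fit that called 4554 genes.

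Rela encodes p65, the main transactivating subunit of the canonical arm. The probe at chr19:5648070-5648129 read 1.64, 1.4, 0.381 and 0.34 in MRL/lpr, 1.46, 1.4, 1.86 and 1.42 in Fn14ko, and 1.28, 2.26, 1.31 and 1.54 in MRL/+. The first MRL/lpr array matched the other strains, and the weak array was lower than every other mouse by more than 3-fold. With all mice MRL/lpr was -1.05 ± 0.47 from Fn14ko and -1.08 ± 0.47 from MRL/+ (limma adjusted p = 0.17 and 0.221). Without the weak channels these became -0.01 ± 0.1 and 0.33 ± 0.13 (adjusted p = 0.999 and 0.182).

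Relb encodes the partner of p52 in the noncanonical arm. The probe used, at chr7:20191773-20191832, read 0.371, 0.341, 0.233 and 1.43 in MRL/lpr, 0.228, 0.304, 0.318 and 0.331 in Fn14ko, and 0.226, 0.879, 0.274 and 0.721 in MRL/+. Both mice of the first MRL/lpr array lay just above the Fn14ko range. Between MRL/lpr and Fn14ko the difference was 0.63 ± 0.43 (limma adjusted p = 0.238) and 0.29 ± 0.18 without the weak channels (adjusted p = 0.415). A probe that overlaps the end of it, at chr7:20191722-20191781, gave 0.378, 0.289, 0.211 and 0.344 in MRL/lpr and 0.214 to 0.276 in Fn14ko. The third Relb probe, farther upstream at chr7:20203058-20203117, gave 0.069 and 0.103 in the first MRL/lpr array and 1.82 and 1.59 in the weak array, and 0.0761 to 0.33 in the other strains. The 3 probes therefore ranked the weak array differently for the same gene.

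**Figure D3:**
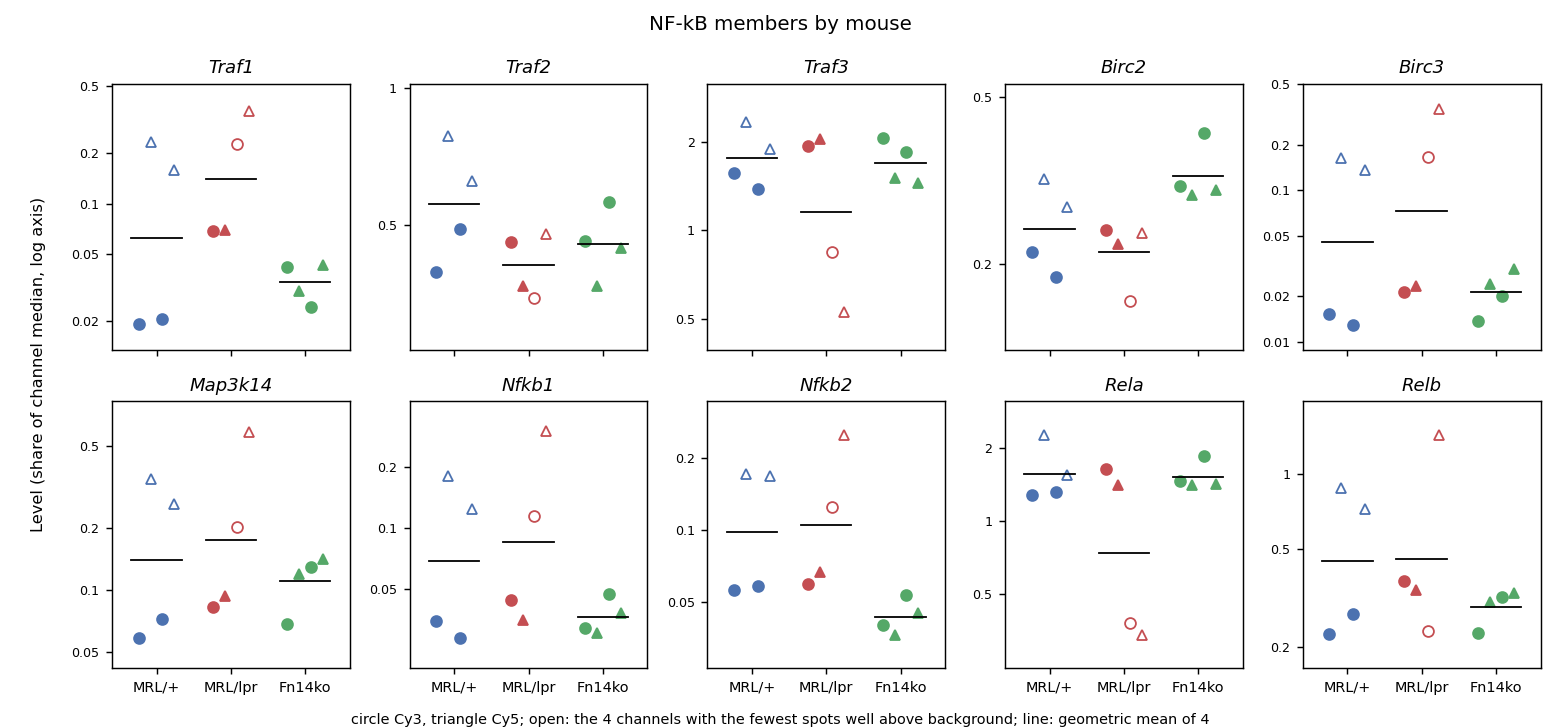
Level of each member in each mouse, as a share of the channel median on a log axis, with circles for Cy3, triangles for Cy5, open symbols for the 4 channels with the fewest spots well above background and a line at the geometric mean of 4 mice. For Traf1, Birc3, Map3k14, Nfkb1 and Nfkb2 the open symbols of MRL/lpr and MRL/+ lie above the filled ones, and for Rela and Traf3 the open MRL/lpr symbols lie lowest.

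Omitting the 4 weak channels turned the direction of several members. With all mice 63.8% of all genes were higher for MRL/lpr against MRL/+, 76% for MRL/lpr against Fn14ko and 16.2% for Fn14ko against MRL/+. For MRL/lpr against MRL/+, 6 of 10 members were higher with all mice and 10 of 10 without those channels, with a median of 0.37 beside a median of -0.00115 for all genes. For MRL/lpr against Fn14ko the count was 6 of 10 in both fits and the median moved from 0.65 to 0.09, while that of all genes moved from 1.35 to 0. For Fn14ko against MRL/+ it moved from 1 of 10 to 9 of 10 higher, with a median of 0.33 beside 0.02 for all genes. In this smaller fit 1, 0 and 0 members passed, against 12.9%, 13.4% and 0.496% of all genes. The MRL/lpr mice in it came from a single array, so array and strain cannot be told apart. Its MRL/+ mice were all labelled with Cy3, so its differences from MRL/+ rest on a dye term estimated in the other strains. Leaving out single mice also mattered. Without MRL/lpr replicate 2, 8 members passed for MRL/lpr against Fn14ko (all but Traf2 and Birc2), in a fit that called 69.1% of all genes (20469). Without MRL/lpr replicate 1, Rela passed in both MRL/lpr comparisons, at -1.52 against MRL/+ (adjusted p = 0.0281) and -1.49 against Fn14ko (adjusted p = 0.0266), where 12.7% and 20.1% of all genes passed.

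**Figure D4:**
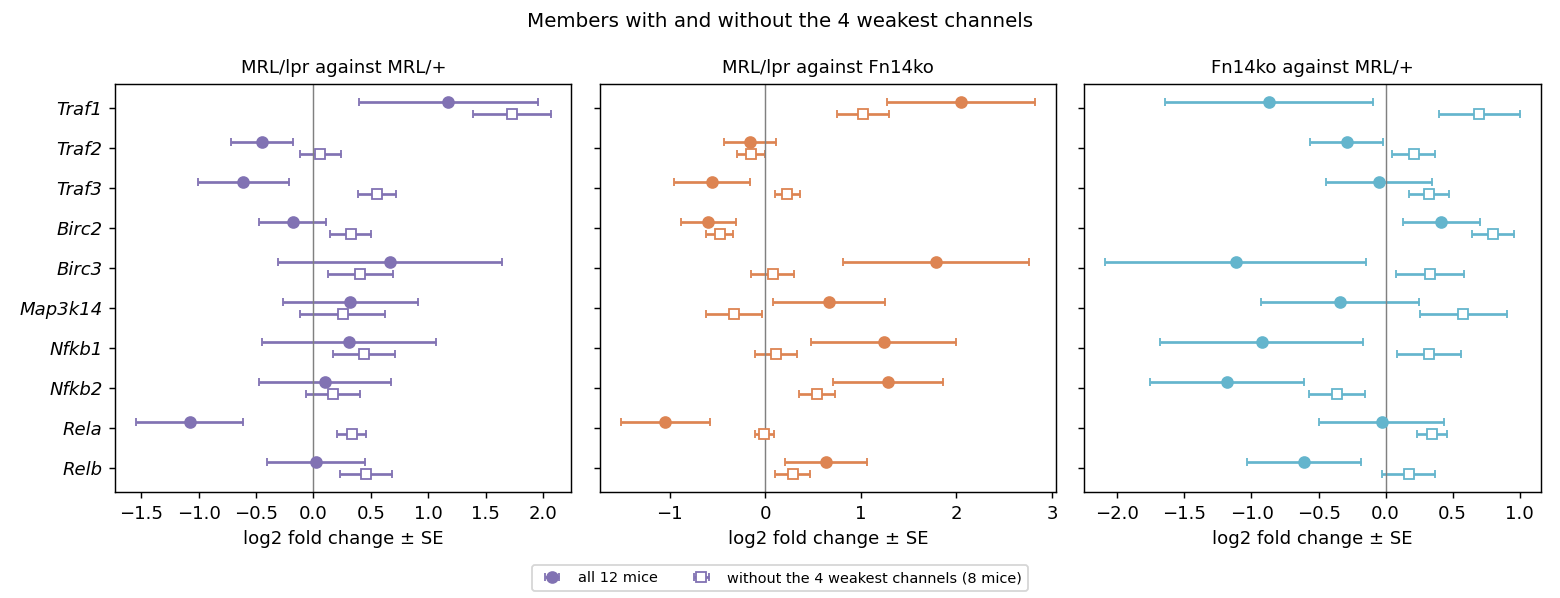
Log2 difference ± SE of each member with all 12 mice (filled circles) and without the 4 weakest channels (open squares, 8 mice) in the 3 comparisons. In Fn14ko against MRL/+ the circles lie left of 0 for 9 members and the squares right of 0 for 9.

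The spread between mice differed by strain. The median coefficient of variation of the members was 17.3% in Fn14ko, 59.5% in MRL/+ and 74.7% in MRL/lpr, beside 17.9%, 72.1% and 90.4% for all genes. In the first MRL/lpr array alone it was 7.41% (n = 2), beside 11.4%. The MRL/+ value includes its weak Cy5 channels, and their part in it was not tested. The members' median lay below that of all genes in each strain.

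Genes with a pattern most like a member were sought among the 8863 other genes valid in all 12 channels, by Pearson correlation of log2 levels over the 12 mice, which share arrays, dyes and the weak channels. The closest to Traf2 were Pnp (0.91) and Caskin2 (0.908). Relb was closest to Med17 (0.981) and Mrps35 (0.969), and Map3k14 to Drd2 (0.982). For Traf3 the closest features carried no gene symbol. These values are descriptions of the 12 mice.

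The rest of the pathway was read from a list of 29 genes that includes the ligand, the receptor, IKK subunits, IkB proteins and other adaptors, all of them on the array. Between MRL/lpr and MRL/+ 1 gene of the list rose and 1 fell (limma adjusted p under 0.05), and for MRL/lpr against Fn14ko 1 rose. For Fn14ko against MRL/+ 0 passed. In these comparisons 2.3%, 6.39% and 0.125% of all genes passed. At an unadjusted p under 0.05 the numbers were 13, 15 and 5, beside 19.2%, 27.8% and 8.74% of all genes, and by the methods' t-test without adjustment they were 5, 9 and 6, beside 7.7%, 7.41% and 7.86% of all genes. List medians were -0.07, 0.22 and -0.06, beside the all-gene medians of 0.21, 1.35 and -0.98. Nfkbib, which encodes the inhibitor IkB beta, was 0.89, 0.884, 0.424 and 0.642 in MRL/lpr, 1.07, 1.21, 1.2 and 1.17 in Fn14ko, and 1.54, 1.88, 1.52 and 2 in MRL/+. The strains did not overlap, with MRL/lpr lowest and MRL/+ highest. Between MRL/lpr and MRL/+ this was so for 7.67% of all genes, 1.92% higher and 5.75% lower in MRL/lpr. Between MRL/lpr and Fn14ko groups did not overlap for 17.7% of all genes, and between Fn14ko and MRL/+ for 10.7%. MRL/lpr against MRL/+ was -1.34 ± 0.25 (limma adjusted p = 0.016), but did not pass with the array as a random block (adjusted p = 0.149). Without the weak channels it was -0.81 ± 0.08 (adjusted p = 0.00401). In that smaller fit MRL/lpr was also lower than Fn14ko, by -0.39 ± 0.06 (adjusted p = 0.0172). Both Nfkbib probes that were used showed this order. In the same fit the list had 1 higher and 1 lower gene against MRL/+, 2 higher and 2 lower against Fn14ko, and 0 for Fn14ko against MRL/+, beside the 12.9%, 13.4% and 0.496% of all genes that passed.

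Sharpin, a subunit of the linear ubiquitin ligase complex that acts upstream of IKK, was 0.993, 1.1, 1.49 and 1.5 in MRL/lpr, 0.992, 0.965, 1.1 and 1.09 in Fn14ko, and 0.883, 0.369, 0.737 and 0.281 in MRL/+. It was 1.29 ± 0.31 higher in MRL/lpr than in MRL/+ (limma adjusted p = 0.0481), but 0.36 ± 0.14 without the weak channels, where its adjusted p was 0.189. With the array as a random block Sharpin did not pass (adjusted p = 0.281). Mapk8, the kinase JNK1, was 0.139, 0.303, 0.112 and 0.225 in MRL/lpr, 0.0208, 0.0158, 0.01 and 0.0172 in Fn14ko, and 0.0256, 0.116, 0.0332 and 0.0867 in MRL/+. MRL/lpr exceeded Fn14ko by 3.55 ± 0.57 (limma adjusted p = 0.00775), but did not pass with the array as a random block (adjusted p = 0.122). Without the weak channels the excess was 3.74 ± 0.38 (adjusted p = 0.00421). These sizes depend on the floor of 0.01, since only 2 of 4 Fn14ko mice were well above background. Of 3 Mapk8 probes 2 were used, and of these only A_55_P2020410 showed the excess in the first MRL/lpr array as well as the weak one. It read 0.262, 0.596, 0.143 and 0.3 in MRL/lpr and 0.01 to 0.0168 in Fn14ko. The other read 0.0165 and 0.0109 in the first MRL/lpr array, 0.0818 and 0.149 in the weak array and 0.01 to 0.027 in Fn14ko. Outside the weak array the Mapk8 difference therefore rests on a single oligonucleotide. The third probe, A_52_P558382, was left out because its spot was flagged as an outlier in at least 1 channel. It read 0.178 and 0.182 in the first MRL/lpr array, 3 and 5.19 in the weak array and 0.171 to 0.229 in Fn14ko.

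The IKK subunits and IkB alpha, which join the members to the canonical arm, did not pass in any comparison. Chuk, which encodes IKK alpha and acts in both arms, was 0.647, 0.501, 0.249 and 0.268 in MRL/lpr and 0.743, 0.787, 1.21 and 0.743 in Fn14ko, without overlap, with a log2 difference of -1.15 ± 0.35 (limma adjusted p = 0.0684). Without the weak channels it was -0.58 ± 0.23 (adjusted p = 0.197). Ikbkb, IKK beta, was 0.337 and 0.272 in the first MRL/lpr array, 1.14 and 1.21 in the weak one, and 0.19 to 0.51 in the other strains. Ikbkg, the regulatory subunit NEMO, was well above background in 8 of 12 channels and differed by -0.07 ± 0.54 between MRL/lpr and MRL/+ (adjusted p of 1). Nfkbia was 1.56, 2.03, 0.921 and 0.69 in MRL/lpr and 2.1, 2.71, 2.85 and 2.13 in Fn14ko, without overlap (-1.03 ± 0.36, adjusted p = 0.101). Without the weak channels it was -0.44 ± 0.18 (adjusted p = 0.217). Of all genes 4.87% were lower in MRL/lpr than in Fn14ko without overlap, as Chuk and Nfkbia were. Fas, whose lpr mutation MRL/lpr and Fn14ko share, was 0.0384, 0.0281, 0.0538 and 0.253 in MRL/lpr, 0.0467, 0.0415, 0.0571 and 0.0563 in Fn14ko, and 0.0983, 0.226, 0.0487 and 0.213 in MRL/+, and did not pass (adjusted p = 0.522 for MRL/lpr against MRL/+).

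Genes that NF-kB is known to induce were read from a list of 31, of which 30 were on the array and 4 were well above background in no channel. Between MRL/lpr and MRL/+ 3 rose and 0 fell (limma adjusted p under 0.05), and for MRL/lpr against Fn14ko 2 rose and 0 fell. For Fn14ko against MRL/+ 0 passed. In these comparisons 0.77%, 5.06% and 0.0135% of all genes were higher and 1.53%, 1.33% and 0.111% lower. At an unadjusted p under 0.05 the numbers were 11, 12 and 3, beside 19.2%, 27.8% and 8.74% of all genes, and by the methods' t-test without adjustment they were 3, 4 and 1, beside the same shares of all genes (7.7%, 7.41% and 7.86%). List medians were 0.83, 1.36 and -0.70, beside all-gene medians of 0.21, 1.35 and -0.98. Without the weak channels 7 rose and 1 fell in the first comparison, 5 rose in the second and 0 passed in the third, beside 12.9%, 13.4% and 0.496% of all genes. Those that rose in the second were C3, Cxcl1, Cxcl10, Cxcl13 and Madcam1. Of these Cxcl13 was well above background in 1 of 12 channels and lay at 0.01 to 0.0103 in Fn14ko, Cxcl10 at 0.01 to 0.0234 and Madcam1 at 0.0114 to 0.0266 there, at or near the floor of 0.01, so the size of their rise depends on that floor. For Madcam1 the 2 MRL/lpr mice in that fit (0.0253 and 0.0418) overlapped with Fn14ko. Those that rose in the first comparison included Cxcl1, Cxcl10, Cxcl13 and Madcam1. In MRL/+ replicates 1 and 3, the ones left in that fit, Cxcl1, Cxcl10 and Cxcl13 were at the floor of 0.01. Madcam1 read 0.0123 and 0.01 there, so the rise of these genes over MRL/+ depends on the floor as well.

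C3, the central complement component, carried the clearest difference. Its level was 0.766, 0.463, 0.493 and 0.663 in MRL/lpr, 0.104, 0.0782, 0.0585 and 0.0706 in Fn14ko, and 0.0635, 0.181, 0.0594 and 0.13 in MRL/+. Every MRL/lpr mouse exceeded every mouse of the other strains, whether or not its array was weak. Of all genes 1.92% were higher in MRL/lpr without overlap against MRL/+ and 12.9% against Fn14ko. MRL/lpr was 2.59 ± 0.41 above MRL/+ and 2.94 ± 0.41 above Fn14ko (limma adjusted p = 0.00594 and 0.0036), and both differences passed in each of the 12 fits that left out 1 mouse, but in 15 and 16 of 20 other settings. With the array as a random block neither passed (adjusted p = 0.111 and 0.0699). Fn14ko against MRL/+ was -0.35 ± 0.41 (adjusted p = 0.55). Csf1, the macrophage growth factor, was 0.52, 0.369, 0.419 and 0.525 in MRL/lpr, 0.312, 0.265, 0.39 and 0.28 in Fn14ko, and 0.257, 0.152, 0.218 and 0.122 in MRL/+. It was 1.34 ± 0.27 higher in MRL/lpr than in MRL/+ (limma adjusted p = 0.0248) and 1.09 ± 0.16 without the weak channels (adjusted p = 0.0145). The Csf1 level came from 1 of 10 spots of probe A_51_P195506, the one valid in all 12 channels. Averaged over its 10 spots the probe read 0.707, 0.584, 0.383 and 0.568 in MRL/lpr and 0.351, 0.465, 0.328 and 0.37 in MRL/+, which overlap, and among the other settings the Csf1 difference went down to 0.0701. Vcam1, an endothelial adhesion molecule, was 0.785, 0.37, 0.516 and 0.511 in MRL/lpr, 0.619, 0.387, 0.551 and 0.429 in Fn14ko, and 0.412, 0.125, 0.376 and 0.128 in MRL/+. MRL/lpr was 1.24 ± 0.3 above MRL/+ (adjusted p = 0.0481), which did not hold without the weak channels (0.81 ± 0.19, adjusted p = 0.0582). For Vcam1 MRL/lpr and MRL/+ overlapped (exact permutation p = 0.0857), and with the processed signal the difference turned to -0.35. Cxcl1, a neutrophil chemokine, was 0.0937, 0.163, 1.74 and 2.71 in MRL/lpr and 0.01, 0.03, 0.01 and 0.0343 in Fn14ko, where 2 mice were at the floor of 0.01 and 1 was well above background. MRL/lpr against Fn14ko was 4.85 ± 1.06 (adjusted p = 0.0211) and 2.79 ± 0.21 without the weak channels (adjusted p = 0.00157), sizes that depend on the floor. Of the 12 fits that left out 1 mouse, the differences from MRL/+ passed in 8 for Nfkbib, 5 for Csf1, 3 for Vcam1 and 2 for Sharpin, and those from Fn14ko in 12 for Mapk8 and 8 for Cxcl1. Of 20 other settings they passed in 14 for Nfkbib, 11 for Csf1, 7 for Sharpin and 6 for Vcam1, and of 19 in 14 for Mapk8 and 11 for Cxcl1. With the array as a random block none of these 6 passed (adjusted p from 0.118 to 0.318).

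**Figure D5:**
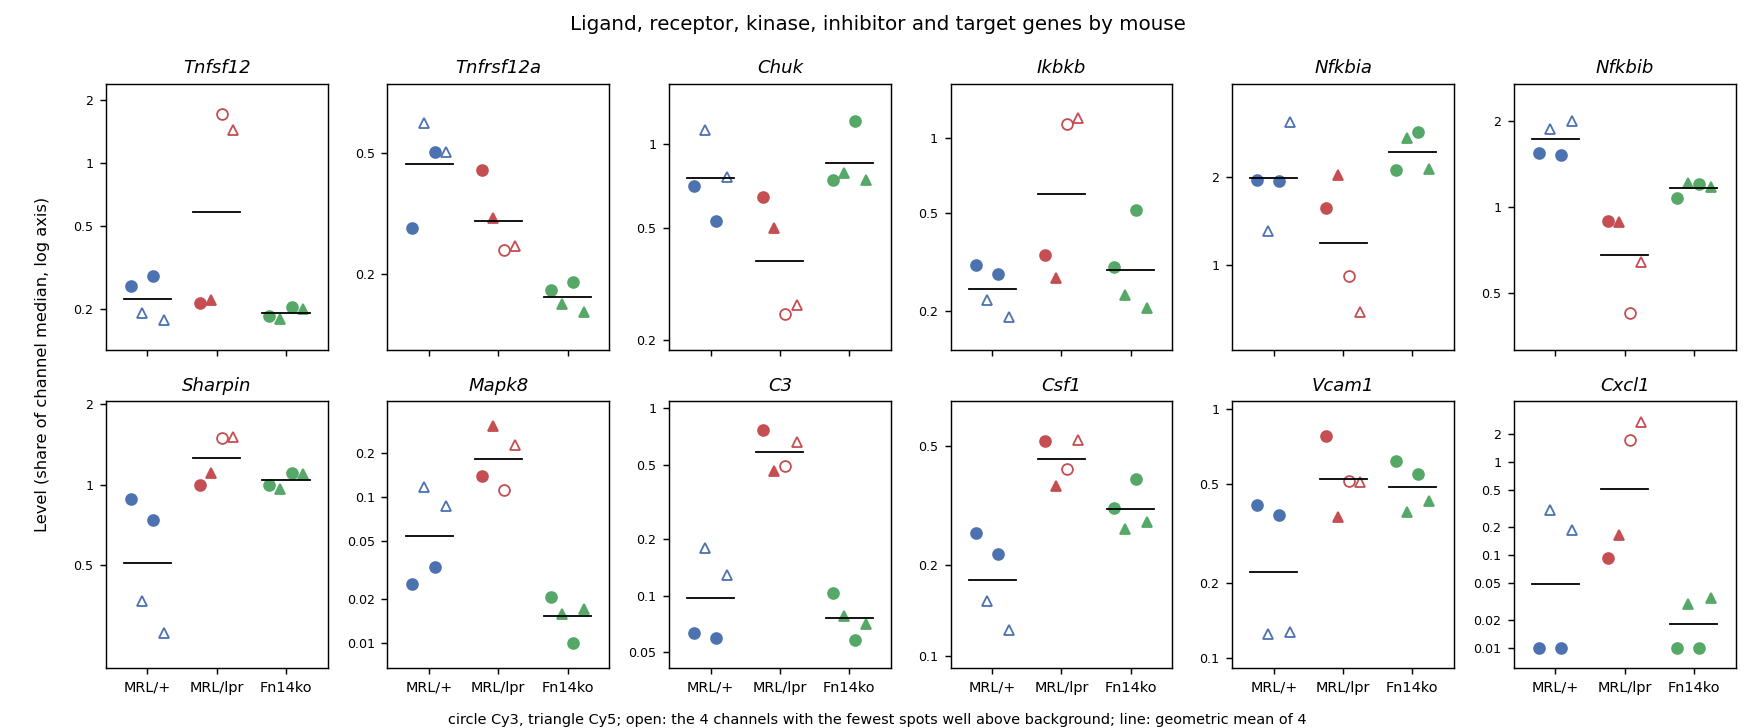
Level of the ligand, the receptor, IKK and IkB genes, Sharpin, Mapk8 and 4 target genes in each mouse, as a share of the channel median on a log axis, with symbols as in the plot of member levels. All 4 MRL/lpr mice lie above all others for C3, and for Tnfsf12 and Ikbkb the weak MRL/lpr array lies highest.

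Marker genes of other cells were read beside these target genes. The summed level of 6 choroid plexus genes was 6.01 to 37.7 in MRL/lpr, 0.955 to 2.36 in MRL/+ and 0.551 to 5.41 in Fn14ko. In it 3 of 6 genes rose in MRL/lpr against Fn14ko and 0 of 6 against MRL/+ (limma adjusted p under 0.05). Their median log2 differences were 2.84 and 2.42, with 5 of 6 genes at an unadjusted p under 0.05 in each comparison. Each of the 6 was well above background in at least 1 channel. Of all genes 5.06% rose and 1.33% fell against Fn14ko, and 0.77% and 1.53% against MRL/+, at the adjusted threshold. The summed level of 6 B cell and plasma cell genes was 0.8 to 2.89 in MRL/lpr, 0.142 to 0.962 in MRL/+ and 0.12 to 0.178 in Fn14ko, with 3 of 6 risen against Fn14ko and 1 of 6 against MRL/+. Of these Ms4a1 was well above background in no channel. The 7 T cell genes summed to 2.16 to 7.01, 2.59 to 5.99 and 1.31 to 1.82 in the same order, with 1 risen against Fn14ko and Cd3g and Cd8a above background in no channel. Of 8 neuronal genes 1 (Slc17a7) fell in MRL/lpr against MRL/+ and 0 passed against Fn14ko, and their summed level was 44.4 and 61.4 in the first MRL/lpr array, 24.2 and 22 in the weak one, 57.4 to 70.4 in MRL/+ and 45.9 to 58.3 in Fn14ko. Of 7 hippocampal genes 2 (Prox1 and Zbtb20) rose in MRL/lpr against both other strains. The summed level of 5 erythroid genes was 14.4 to 148 in MRL/lpr, 41.3 to 52.3 in MRL/+ and 22.9 to 75.6 in Fn14ko, with 1 gene risen against Fn14ko. Of 8 microglia and macrophage genes 1 fell against Fn14ko, of 7 astrocyte genes 1 rose against each strain and 1 fell against Fn14ko, of 7 endothelial genes 1 rose against Fn14ko, and of 7 oligodendrocyte genes 0 passed. The part of these cells in the levels of Traf1, C3 and the chemokines was not tested, and in whole tissue fewer cells of a type and less RNA per cell cannot be told apart.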

How the data were processed

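Hippocampal RNA of 12 mice (4 MRL/lpr, 4 Fn14ko, 4 MRL/+) was hybridised to 6 Agilent 60-mer 2-colour arrays, 2 mice of a strain on each. The authors deposited scanner tables from Agilent Feature Extraction 12.1, in linear intensity (foreground mean, local background median, processed signal) with other columns holding quality flags, per the file headers. Each sample's channel was background-subtracted here, spots flagged as outliers were dropped, and a spot was valid when foreground was at least 2 times background. Channels were divided by their median over the 10877 spots valid in all 12. Spots, then probes, were averaged to genes; genes lacking such a spot used all unflagged spots, with a floor of 0.01. Log2 levels were fitted with limma 3.58.1 (R 4.3.3) over all 12 samples with dye as covariate and a variance trend, with no term for the array that 2 mice shared (consensus correlation on an array 0.573), and p-values were adjusted by Benjamini-Hochberg over 29608 genes (threshold 0.05). Permutation tests were exact and two-sided, and treated the mice as exchangeable without regard to the array that 2 mice shared. The fit was tested on simulated data. There more unchanged genes passed for MRL/lpr against MRL/+ than in the other comparisons. Calls for MRL/lpr against MRL/+ may therefore exceed the nominal false discovery rate. The other comparisons were not shown to keep to that rate. Mice on an array were correlated (0.573), and the fit had no term for this. Allowing for shared arrays took MRL/lpr against Fn14ko from 1892 genes to 49. It took Fn14ko against MRL/+ from 37 to 0 and MRL/lpr against MRL/+ from 680 to 111.

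The members, lists and alternatives were chosen with earlier results of these data known. The genes named were all members, 7 fixed pathway genes and, of each list, up to 4 genes per comparison with the smallest adjusted p past the threshold. Replicate numbers stood for dye and array position, and same-numbered deviations correlated by 0.202 to 0.501 for Fn14ko against MRL/+ and by -0.395 to 0.441 for MRL/lpr against MRL/+. Each sample was the hippocampus of 1 mouse, which the study's methods treat as a biological replicate. The number of arrays limits precision.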

Additional observations from a re-analysis of the deposited data

Results flagged for a closer look

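In groups of 4 mice, a value was singled out when its gap to the nearest other mouse as a share of the group's range exceeded Dixon's critical value for 4 samples. Of 30 groups (10 members in 3 strains) 3 met this, and chance gives about 1 in 20. The share was 0.867, 0.87 and 0.884 in the order given here. Birc2 was 0.41 in Fn14ko replicate 3, above 0.291 to 0.307 in its strain mates. Rela was 1.86 in the same mouse, above 1.4 to 1.46. Relb was 1.43 in MRL/lpr replicate 4, above 0.233 to 0.371. Fn14ko replicate 3 was on a well-measured array (68.1% of spots well above background), whereas MRL/lpr replicate 4 was the channel with the fewest such spots (19.6%), and the part of either in these values was not tested.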

How the results depend on the processing

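With 4 mice a group and 2 mice on each array, results rest on few arrays. In 4 of 12 channels fewer spots were well above background than in the rest, which limited the reading of dim genes. Each result was recomputed under 23 other settings and 12 fits that left out 1 mouse (not every gene could be given under each). C3 kept its direction in all of these in both comparisons with MRL/lpr, Mapk8 in MRL/lpr against Fn14ko, and Nfkbib, Sharpin and Csf1 in MRL/lpr against MRL/+. Among members, Nfkb2 in Fn14ko against MRL/+ and Traf1, Birc3 and Rela in MRL/lpr against Fn14ko kept theirs as well. Without the weak array, however, Birc3 shrank to 0.08 ± 0.75 and Rela to -0.01 ± 0.23. Keeping direction is not keeping the call, and with the array as a random block none of these named genes passed. The cause of the changes below was not tested. Channel medians over all spots moved the all-gene median from 1.35 to -0.0746 for MRL/lpr against Fn14ko, and the members' median from 0.65 to -0.81. The replicate number taken as a block changed no call of a member. The settings for the Cy3 samples, the Cy5 samples and the 4 weak channels were added after the data were seen.

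For MRL/lpr against MRL/+, the 680 genes that passed became 281 with channel medians over all spots, 1159 with normexp correction, 1562 with normexp, loess and Aquantile, 2461 with the processed signal, 111 with the array as a random block, 5660 with estimated array weights, 73 with only the 2 groups compared, 3052 without the weak array, 94 without a variance trend, 0 in Cy3 samples alone, 0 in Cy5 samples alone, 3830 without the 4 weak channels, 2281 by the methods' t-test without adjustment and 0 by the methods' t-test after Benjamini-Hochberg adjustment. Members that passed went from 0 to 1 with the processed signal, with estimated array weights and without the 4 weak channels. Log2 differences turned sign in the following cases. With channel medians over all spots they were -0.22 for Map3k14, -0.23 for Nfkb1, -0.44 for Nfkb2 and -0.51 for Relb. With quantile normalization they were -0.12 for Nfkb1, -0.43 for Nfkb2 and -0.16 for Relb. With normexp correction they were 0.37 for Birc2. With normexp, loess and Aquantile they were -0.0824 for Nfkb1 and -0.47 for Nfkb2. With the processed signal they were 0.0615 for Traf2, 0.87 for Birc2, -0.52 for Nfkb1 and -0.35 for Vcam1. With estimated array weights they were 0.00357 for Traf2, 0.43 for Traf3, 0.26 for Birc2 and 0.25 for Rela. Without the weak array they were 0.18 for Traf3, -1.04 for Birc3, -0.67 for Map3k14, -0.81 for Nfkb1, -0.65 for Nfkb2 and -0.32 for Relb. In Cy5 samples alone they were -0.28 for Traf1, -0.74 for Birc3, -0.36 for Map3k14, -0.55 for Nfkb1, -0.39 for Nfkb2 and -0.19 for Relb. Without the 4 weak channels they were 0.0599 for Traf2, 0.55 for Traf3, 0.33 for Birc2 and 0.33 for Rela. Leaving out each mouse in turn gave 181 to 3978 genes and 0 to 1 members that passed, with log2 differences of -0.0694 to 1.58 for Birc3, -0.12 to 0.88 for Map3k14, -0.21 to 0.96 for Nfkb1, -0.25 to 0.47 for Nfkb2 and -0.40 to 0.38 for Relb.

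In the comparison of MRL/lpr with Fn14ko, the 1892 genes that passed became 353 with only genes valid in all 12 channels, 3297 with channel medians over all spots, 1067 with 75th percentile scaling, 288 with quantile normalization, 710 with normexp, loess and Aquantile, 378 with a floor of 0.05, 827 without the dye covariate, 49 with the array as a random block, 4574 with estimated array weights, 565 with only the 2 groups compared, 0 in Cy3 samples alone, 3 in Cy5 samples alone, 3955 without the 4 weak channels, 0 by the methods' t-test after Benjamini-Hochberg adjustment and 917 by the composite criterion. Members that passed went from 0 to 1 with channel medians over all spots, with the processed signal and by the methods' t-test without adjustment. Log2 differences turned sign in the following cases. With no filter on dim spots they were 0.0486 for Traf2. With channel medians over all spots they were -0.79 for Map3k14, -0.22 for Nfkb1, -0.17 for Nfkb2, -0.82 for Relb and -0.63 for Tnfrsf12a. With 75th percentile scaling they were 0.00213 for Traf2. With quantile normalization they were -0.11 for Nfkb1, -0.28 for Nfkb2 and -0.0995 for Tnfrsf12a. With normexp correction they were 0.0879 for Traf2. With normexp, loess and Aquantile they were -0.0918 for Nfkb1 and -0.22 for Nfkb2. With the mean of log2 levels they were 0.17 for Birc2. With estimated array weights they were 0.12 for Traf3 and -0.14 for Map3k14. Without the weak array they were 0.23 for Traf3 and -0.32 for Map3k14. In Cy5 samples alone they were 0.0457 for Traf2. Without the 4 weak channels they were 0.23 for Traf3 and -0.32 for Map3k14. Leaving out each mouse in turn gave 129 to 20469 genes and 0 to 8 members that passed.

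In the comparison of Fn14ko with MRL/+, the 37 genes that passed became 0 with channel medians over all spots, 0 with quantile normalization, 122 with normexp correction, 0 with normexp, loess and Aquantile, 21 with a floor of 0.05, 18 without the dye covariate, 0 with the array as a random block, 21 with the replicate block, 2543 with estimated array weights, 4554 with only the 2 groups compared, 3926 without the weak array, 0 without a variance trend, 0 in Cy3 samples alone, 0 in Cy5 samples alone, 147 without the 4 weak channels, 2327 by the methods' t-test without adjustment, 4 by the methods' t-test after Benjamini-Hochberg adjustment and 847 by the composite criterion. Members that passed went from 0 to 1 with estimated array weights and with only the 2 groups compared. Log2 differences turned sign in the following cases. With channel medians over all spots they were 0.0467 for Traf1, 0.63 for Traf2, 0.87 for Traf3, 0.58 for Map3k14, 0.89 for Rela and 0.31 for Relb. With quantile normalization they were 0.00772 for Rela. With normexp, loess and Aquantile they were 0.00618 for Traf1, 0.0684 for Map3k14 and 0.0094 for Nfkb1. With the processed signal they were 0.0623 for Traf1, 0.0797 for Traf2, 0.0677 for Traf3, 0.0938 for Map3k14 and 0.27 for Rela. With the mean of log2 levels they were -0.33 for Birc2. With estimated array weights they were 0.58 for Traf1, 0.14 for Traf2, 0.31 for Traf3, 0.0923 for Birc3, 0.38 for Map3k14, 0.12 for Nfkb1, 0.28 for Rela and 0.0205 for Relb. In Cy3 samples alone they were 0.68 for Traf1, 0.21 for Traf2, 0.40 for Traf3, 0.24 for Birc3, 0.53 for Map3k14, 0.30 for Nfkb1, 0.34 for Rela and 0.11 for Relb. Without the 4 weak channels they were 0.70 for Traf1, 0.21 for Traf2, 0.32 for Traf3, 0.33 for Birc3, 0.58 for Map3k14, 0.33 for Nfkb1, 0.35 for Rela and 0.17 for Relb. Leaving out each mouse in turn gave 0 to 172 genes and 0 to 0 members that passed, with log2 differences of -0.19 to 0.12 for Traf3 and -0.14 to 0.17 for Rela.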
